A study of Mus musculus with 4 samples.

Results

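The genes described here are the collagens and the laminins, taken by symbol alone: every symbol listed in all 4 libraries that reads Col, a number, a and a number, or Lam, then a, b or c and a number from 1 to 5. The rule found 55 genes, 44 collagens and 11 laminins, among the 34968 symbols that the libraries share. The libraries are bulk poly-A RNA-seq of neurons made from mouse embryonic stem (ES) cells, with 2 libraries for each of 2 transgenic lines and the replicate numbers 1 and 2 in each line. In the N/D line a Nestin enhancer drives Nkx2-1 together with the tTA2S transactivator, and tTA2S in turn switches on Dlx2 from a TRE promoter. The N/D/S line carries the same Nkx2-1 cassette and expresses Dlx2 together with St18, a zinc finger transcription factor, from the TRE promoter. Both lines came from the parental ES line labelled Dlx6-Cre; Ai9 and C57/BL6 (Dlx6a-Cre in the study's methods), in which cells that have expressed this Cre become tdTomato positive, and both were drug-selected and picked as clones. Both lines were grown as floating embryoid bodies in medium with XAV-939, an inhibitor of Wnt signaling, and SAG, an agonist of Hedgehog signaling, and tdTomato+ cells were sorted after 12 days. The comparison of N/D/S with N/D asks what the addition of St18 changes in these genes. The comparison of replicate 1 with replicate 2 asks for differences between the numbers that both lines share. It does not measure how far libraries of a line differ, since differences that run opposite ways in the lines cancel in it. The labels do not say what a replicate number stands for or whether the libraries of a line came from separate cultures, so p-values below measure only the spread between these libraries, which may be technical.

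Levels are in TPM, a length-corrected share of a library's transcripts scaled to a fixed total, and read depth is unknown. Symbols above 0 numbered from 13504 in N/D replicate 1 to 20878 in replicate 1 of N/D/S. The transgene check did not separate the labels: the N/D/S labels go with 44.4 and 15.9 TPM of St18 and the N/D labels with 28.5 and 26.6 TPM, so each direction given below rests on labels that St18 does not bear out. All 12 neuron markers examined stood at 1 TPM or more in every library, and their summed level ranged from 3448 to 5251 TPM. The replicate 1 files held 203 symbols that the replicate 2 files did not, and the replicate 2 files held 210 that the replicate 1 files did not, but no collagen or laminin symbol was among them.

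Collagens are mostly secreted proteins whose chains wind into a helix of several chains. Fibrillar collagens such as Col1a1 and Col3a1 form the fibrils of connective tissue, type IV collagens form the sheet of the basement membrane, and fibril-associated collagens decorate fibrils. Laminins are cross-shaped proteins built of an alpha, a beta and a gamma chain that form the other sheet of the basement membrane. In the embryonic brain the basement membranes lie at the pial surface and around vessels, and neurons meet laminin and collagen through integrins, dystroglycan and discoidin domain receptors.

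The sequences below are shown because type IV collagen genes lie in head-to-head pairs and because Col3a1 and Col5a1 had opposite patterns across the libraries. Col4a1 (chr8:11198423-11312826, minus strand) and Col4a2 (chr8:11312805-11449287, plus strand) share 22 bases at their 5′ ends in the GENCODE M21 annotation of GRCm38, marked in capitals in the first line, which runs along the plus strand from chr8:11312801-11312830. For Col3a1 and Col5a1 the 250 bases before the RefSeq start site are given, from chr1:45311288-45311537 and chr2:27886175-27886424, both on the plus strand of GRCm38.p6. Capitals there mark GGGCGG, the letters of the GC box, and TATAAA, those of the core of the TATA box, on either strand. The promoter motif CCAAT was searched as well and has no match in these stretches.
Col4a1 and Col4a2 overlap: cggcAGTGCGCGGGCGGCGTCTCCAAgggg
Col3a1: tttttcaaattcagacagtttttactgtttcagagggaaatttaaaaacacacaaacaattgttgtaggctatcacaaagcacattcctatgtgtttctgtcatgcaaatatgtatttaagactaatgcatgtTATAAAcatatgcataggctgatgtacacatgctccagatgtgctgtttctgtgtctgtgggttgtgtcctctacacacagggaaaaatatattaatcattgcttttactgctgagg
Col5a1: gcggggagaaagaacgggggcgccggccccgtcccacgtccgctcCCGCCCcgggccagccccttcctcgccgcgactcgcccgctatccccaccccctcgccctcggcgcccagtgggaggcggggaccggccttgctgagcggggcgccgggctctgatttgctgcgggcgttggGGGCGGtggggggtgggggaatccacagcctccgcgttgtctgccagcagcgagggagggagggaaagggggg

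The Col3a1 stretch held 1 TATA box and no GC box, with a GC content of 35.2%, whereas the Col5a1 stretch held 2 GC boxes and no TATA box, with a GC content of 76.4%. Of the 6 genes with a stretch and both replicate 2 libraries on top, Col3a1 alone held a TATA box. Col4a2 (2 GC boxes, GC content 73.6%), Col6a2 and Col18a1 held GC boxes in a stretch, and Col4a1 and Col6a1 held neither. A link between these letters and the levels was not tested. The RefSeq table had start sites for 40 of the 55 genes, in 44 stretches of 250 bases. A GC box was found in 24 of these 44 (54.5%) against 32.7% of all 32851 stretches in the table. The median GC content was 59% over the members' stretches and 52.4% over all stretches, and its part in this share was not tested. The shares with a CCAAT motif (31.8% against 33.8%) and with a TATA box (11.4% against 12.4%) were closer to those of all stretches. These matches describe letters only, with overlapping matches counted separately. By the GENCODE annotation Col9a3 lies at chr2:180597790-180622189 (plus strand), Col26a1 at chr5:136741759-136883209 (minus strand, overlapping Gm20485) and Col3a1 at chr1:45311538-45349706 (plus strand). The other pairs of type IV collagen genes are Col4a3 and Col4a4 on chromosome 1, whose annotated ends lie 71 bases apart, and Col4a5 and Col4a6 on chromosome X, 1308 bases apart.

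The collagen and laminin genes were low in these neurons. None stood at 1 TPM or more in all 4 libraries, 25 stayed under 1 TPM in every library, and 4 (Col9a3, Col26a1, Col3a1 and Col5a1) reached 10 TPM in any library. Only Col10a1, a collagen of hypertrophic cartilage, was listed at 0 in all 4. In the N/D/S line, 15 genes of replicate 1 and 16 of replicate 2 were at 1 TPM or more, and in the N/D line 2 and 25. All 55 genes summed to 57.8, 92.8, 21.8 and 134.7 TPM in the same order, so the N/D libraries held both the lowest and the highest sum. The count of genes listed at 0 was 40 of 55 in N/D replicate 1, against 4 in the other N/D library and 6 and 17 in the N/D/S libraries. The highest level of a gene fell in N/D replicate 2 for 31 genes and in N/D replicate 1 for 2 (Col4a3 and Col5a1), and in replicates 1 and 2 of N/D/S for 13 and 8. In bulk libraries, fewer cells that make a transcript and less of it per cell cannot be told apart.

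**Figure D1:**
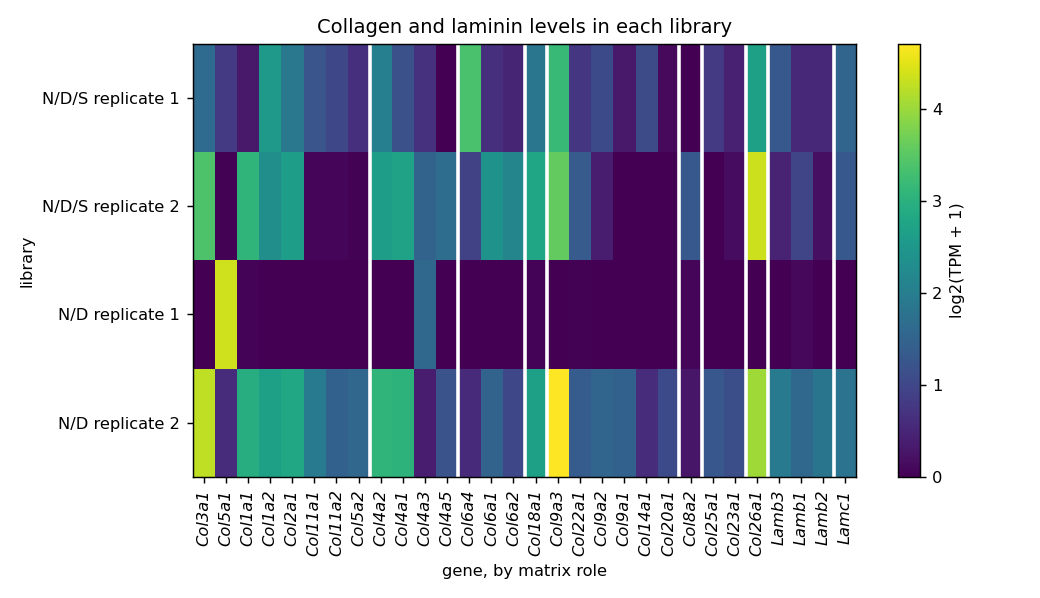
Levels of the 30 collagen and laminin genes that reached 1 TPM in any library, as log2(TPM + 1), with 1 row per library and 1 column per gene; white lines part the groups, from left to right fibrillar, type IV, type VI, multiplexin, fibril-associated, short-chain network, transmembrane and other collagens, then laminin beta and gamma chains. N/D replicate 1 is dark for nearly every gene, with Col5a1 (19.5 TPM) and Col4a3 (2.01 TPM) as the exceptions.

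Among the fibrillar collagens, Col3a1, the chain of type III collagen, stood at 2.14 and 9.49 TPM in N/D/S and at 0 and 18.2 TPM in N/D, with the value of replicate 1 first here and below. Both replicate 2 libraries were above both replicate 1 libraries, and the lines overlapped. Col2a1, the chain of cartilage type II collagen, had the same order by replicate number, at 2.70 and 5.18 TPM in N/D/S against 0 and 5.97 TPM in N/D. Type I collagen is built of the chains of Col1a1 and Col1a2, which did not run together. Col1a1 stood at 0.256 and 7.40 TPM in N/D/S and at 0.0354 and 6.64 TPM in N/D. Col1a2 stood at 4.85 and 4.04 TPM in N/D/S and at 0.00773 and 5.39 TPM in N/D. N/D/S replicate 1 was thus low in Col1a1 but near the replicate 2 libraries in Col1a2. Col5a1, a chain of type V collagen, which sits inside fibrils of type I collagen, ran the other way, at 0.734 and 0.0216 TPM in N/D/S against 19.5 and 0.518 TPM in N/D. It passed 1 TPM in a single library and was not tested, whereas its partner Col5a2 was listed at 0 in that library and stood at 1.92 TPM in N/D replicate 2. Col11a1 and Col11a2, chains of type XI collagen, were highest in N/D replicate 2 (2.76 and 1.74 TPM), next in N/D/S replicate 1 (1.37 and 1.03 TPM) and under 0.1 TPM in the other libraries. The remaining 3 fibrillar genes, Col5a3, Col24a1 and Col27a1, reached at most 0.390 TPM (Col27a1).

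Of the type IV collagens, Col4a1 and Col4a2 encode the chains found in nearly every basement membrane. Col4a1 stood at 1.25 and 5.58 TPM in N/D/S and at 0 and 7.24 TPM in N/D. Col4a2 stood at 3.06 and 5.10 TPM in N/D/S and at 0 and 7.48 TPM in N/D. The genes put the 4 libraries in the same order, with both replicate 2 libraries on top. The genes share 22 bases in the annotation, and a count of reads without strand could split reads there between them. Col4a3, whose chain belongs to the specialised network of kidney and lung, stood at 0.589 and 1.81 TPM in N/D/S and at 2.01 and 0.275 TPM in N/D, while its neighbour Col4a4 was listed at 0 in 3 libraries and at 0.0248 TPM in N/D replicate 2. Col4a5 stood at 0 and 2.20 TPM in N/D/S and at 0 and 1.31 TPM in N/D. Col4a6 stayed between 0.00539 and 0.483 TPM. Of the head-to-head pairs, the Col4a1 and Col4a2 pair was the only one in which both genes were at 1 TPM or more in the same library.

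**Figure D2:**
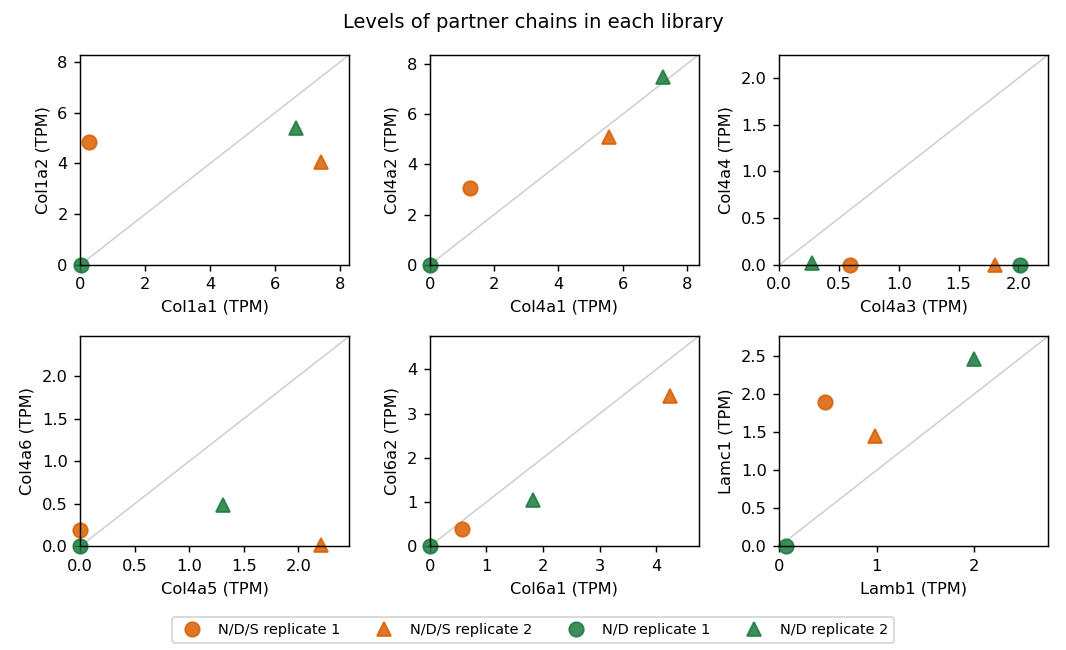
Level of a gene against that of its partner chain or neighbour, in TPM, for 6 pairs; each point is 1 library, circles are replicate 1 and triangles replicate 2, orange is N/D/S and green N/D, and the grey line marks equal levels. Col4a1 with Col4a2 and Col6a1 with Col6a2 rise along the line, whereas N/D/S replicate 1 holds 4.85 TPM of Col1a2 beside 0.256 TPM of Col1a1.

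Type VI collagen forms beaded filaments around cells, and its chains come from Col6a1, Col6a2 and a longer chain. Col6a1 stood at 0.563 and 4.24 TPM in N/D/S and at 0 and 1.82 TPM in N/D. Col6a2, its neighbour on chromosome 10, stood at 0.399 and 3.39 TPM in N/D/S and at 0 and 1.04 TPM in N/D. In both genes the replicate 2 libraries were above the replicate 1 libraries, and within each replicate number the N/D/S library was above the N/D library. Of the longer chains, Col6a3 reached 0.579 TPM, and Col6a5 and Col6a6 reached 0.127 and 0.0894 TPM, all in N/D/S replicate 1. Col6a4 stood apart at 9.26 TPM in N/D/S replicate 1, with 0.878 TPM in N/D/S replicate 2 and 0 and 0.499 TPM in N/D. It passed 1 TPM in that library alone and was not tested.

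Col9a3, a chain of the fibril-associated type IX collagen, had the highest mean of all the members, with 8.03 and 10.9 TPM in N/D/S against 0 and 25.1 TPM in N/D. Its gene overlaps Tcfl5 in the annotation, which reached at most 1.26 TPM. The other type IX chains were lower and did not keep its order, with 1.09 and 0.280 TPM of Col9a2 in N/D/S against 0 and 1.89 TPM in N/D. Col9a1 reached 1.76 TPM in N/D replicate 2 and 0.256 TPM or less elsewhere. Col26a1, a small collagen with an EMI domain, stood at 5.38 and 19.3 TPM in N/D/S and at 0 and 15.3 TPM in N/D. Col18a1, the source of endostatin and a part of basement membranes, stood at 2.60 and 5.82 TPM in N/D/S and at 0.0298 and 5.38 TPM in N/D. In Col9a3, Col26a1 and Col18a1 both replicate 2 libraries were above both replicate 1 libraries, and the lines overlapped. Col22a1 was lower, at 0.685 and 1.54 TPM in N/D/S against 0.0154 and 1.58 TPM in N/D. The transmembrane collagens reached at most 1.42 TPM (Col25a1, which neurons are known to make, in N/D replicate 2).

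The 11 laminin genes summed to 5.56 and 3.12 TPM in N/D/S and to 0.0658 and 12.4 TPM in N/D. A laminin needs an alpha chain, and all 5 alpha genes stayed under 1 TPM in every library. Lama1, the alpha chain of the early embryo, stood at 0.855 and 0.143 TPM in N/D/S and at 0 and 0.840 TPM in N/D. Lama4, found in vessel walls, reached 0.714 TPM and Lama5, the alpha chain of most epithelial basement membranes, reached 0.298 TPM, both in N/D replicate 2, and Lama2 and Lama3 peaked at 0.161 and 0.0721 TPM in N/D/S replicate 1. All 3 beta chains and Lamc1 reached 1 TPM in some library. Lamc1, the gamma chain of most laminins, stood at 1.90 and 1.45 TPM in N/D/S and at 0 and 2.46 TPM in N/D. Lamb3, a beta chain of epithelial laminin, stood at 1.45 and 0.391 TPM in N/D/S and at 0 and 2.84 TPM in N/D. Lamc1 and Lamb3 were the 2 laminin genes that passed the filter on low values, and in both N/D replicate 2 was highest and N/D replicate 1 at 0, so the lines overlapped. Lamb1, the beta chain of most laminins, stood at 0.464 and 0.983 TPM in N/D/S against 0.0658 and 1.99 TPM in N/D, and was the only laminin gene above 0 in N/D replicate 1. Lamb2, the beta chain of synapses and vessels, stood at 0.463 and 0.146 TPM in N/D/S against 0 and 2.53 TPM in N/D. Lamc3 reached 0.224 TPM in N/D replicate 2 and was listed at 0 elsewhere.

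For the comparison of the lines, log2(TPM + 1) was fitted with limma over the 12975 genes that stood at 1 TPM or more in at least 2 libraries, which kept 19 of the 55 members. Differences are on the log2(TPM + 1) scale, which understates the change of low genes. None of the 19 passed an adjusted p of 0.05 in either direction, and neither did any of the 12975 genes (0%). At an unadjusted p under 0.05 the fit gave 3 genes higher and 5 lower in N/D/S, with no member among them. The lowest unadjusted p of a member was 0.353, for Col26a1, which was 1.50 higher in N/D/S (SE 1.50). By size of the fitted increase, Col26a1 was followed by Col1a2 at 1.10 (SE 1.19), Col9a3 at 1.02 (SE 1.58), Col18a1 at 0.95 (SE 1.21) and Col2a1 at 0.86 (SE 1.23). Among the members lowest in N/D/S were Col11a1 at -0.31, Col11a2 at -0.17, Lamb3 at -0.09 and Col9a2 at -0.06. The standard error exceeded the size of the difference for each of these genes, narrowly so for Col26a1. The fitted difference was above 0 for 15 of the 19 members and below 0 for 4 (61.4% of all genes tested were above 0), with a median of 0.42 beside 0.26 over all genes tested.

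Within the replicate numbers, the difference between the lines took opposite directions. Between the replicate 1 libraries, 17 of the 19 members were higher in N/D/S, 1 (Col4a3) was lower and 1 (Col4a5) was at 0 in both, with a median of 1.23, and 72.5% of all genes tested were higher. Between the replicate 2 libraries 7 were higher in N/D/S and 12 lower, with a median of -0.33, and 25.2% of all genes tested were higher. Over all genes tested the medians had the same signs, at 1.14 and -0.62. For 12 of the 19 members (63.2%) the N/D/S library was higher in replicate 1 and lower in replicate 2, beside 56.6% of all genes tested. Col9a3, for example, differed by 3.18 in replicate 1 and by -1.13 in replicate 2, both as N/D/S minus N/D. In both replicate numbers the N/D/S library was the higher for Col18a1, Col1a1, Col26a1, Col6a1 and Col6a2 (5 genes, 26.3%, beside 15.9% of all genes tested), and it was the lower in both for no member (17.9% of all genes tested). Of these, Col6a2 differed by 0.48 and 1.11 and Col6a1 by 0.64 and 0.89, whereas Col1a1 differed by 0.28 and 0.14 and Col18a1 by 1.81 and 0.10.

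**Figure D3:**
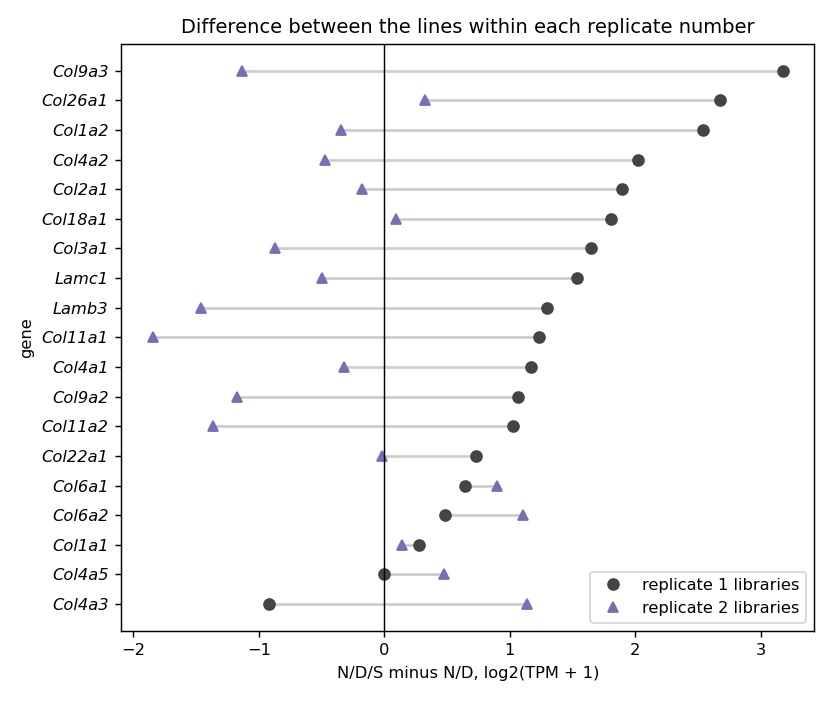
Difference between the N/D/S and the N/D library on the log2(TPM + 1) scale for each of the 19 members tested, with a circle for the replicate 1 libraries and a triangle for the replicate 2 libraries; each point compares 1 library with 1 library. For 12 genes the circle lies above 0 and the triangle below 0, and in 5 genes both lie above 0.

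More members lay apart by replicate number than by line, but none passed the test. In the fit with terms for line and replicate number, none of the 19 members and none of the 12975 genes (0%) passed an adjusted p of 0.05 by limma. At an unadjusted p under 0.05 there were 52 genes higher and 82 lower in replicate 1, with no member among them. The lowest p of a member was 0.0561, for Col3a1, whose difference, replicate 1 minus replicate 2, was -3.00 (SE 1.34). Col26a1 stood at -2.85 (SE 1.33), Col1a1 at -2.81 (SE 1.26), Col9a3 at -2.55 (SE 1.48) and Col4a1 at -2.30 (SE 1.29). Col1a1 had an unadjusted p of 0.0572 and a residual SD of 0.07, the smallest of the 19, since its difference between the replicate numbers was nearly the same in both lines. The median difference was -1.44 over the 19 members and -0.25 over all genes tested, but Col1a1, Col22a1, Col4a5, Col6a1 and Col6a2 passed the filter through the replicate 2 libraries alone, which fixed their direction. Of the 14 other members, each at 1 TPM or more in a library of both replicate numbers, 13 were below 0 and Col4a3 was above it. Their median was -1.50, beside -0.22 and 59.2% below 0 over the 12479 genes tested that met the same condition, which was set after the data were seen. Within the N/D/S line alone the median of these 14 was -0.49, with 8 below 0 and 6 above it, beside 0.72 over the 12479 genes, and within the N/D line it was -2.65, with 13 below 0, beside -1.18.

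Non-overlap was counted over genes with a mean of at least 1 TPM over the 4 libraries, a filter over all libraries together that was chosen after the data were seen, which held 17 members among 12730 genes. For 10 of the 17 members (58.8%) both replicate 2 libraries were above both replicate 1 libraries, beside 14.3% of all 12730 genes. These were Col1a1, Col2a1, Col3a1, Col4a1, Col4a2, Col6a1, Col6a2, Col9a3, Col18a1 and Col26a1, all of them collagens. The opposite order held for 1 member, Col5a1, beside 15.1% of all genes. Col1a1, Col6a1 and Col6a2 were under 1 TPM in both replicate 1 libraries and reached the mean through the replicate 2 libraries. Among genes that also reached 1 TPM in at least 1 library of each replicate number, a filter added after the data were seen, 7 of 12 members (58.3%) had both replicate 2 libraries on top, beside 12.5% of 12189 genes, and no member had both replicate 1 libraries on top, beside 14.7%. Leaving out N/D replicate 1, both replicate 2 libraries were above N/D/S replicate 1 for 10 members, beside 19.9% of all genes, and under the stricter filter for 7 of 12, beside 18.3%. Between the lines, both N/D/S libraries were above both N/D libraries for 1 member, Col6a4, beside 8.65% of all genes, and both N/D libraries were above both N/D/S libraries for no member, beside 8.6%. Another 4 members, Col11a1, Col1a2, Lamb3 and Lamc1, had their highest levels in replicate 1 of N/D/S and replicate 2 of N/D, an order that held for 47% of all genes.

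N/D replicate 1, which enters each fit above, listed most members at or near 0. Many other genes were at 0 in it too, so the members were set beside genes of like level. Among genes at 1 TPM or more in each other library and with a mean there of at most 20 TPM, 7 of 9 members (77.8%) were listed at 0 in N/D replicate 1, beside 37.6% of all 5131 such genes. The 9 members were Col1a2, Col2a1, Col3a1, Col4a1, Col4a2, Col9a3, Col18a1, Col26a1 and Lamc1, of which Col1a2 (0.00773 TPM) and Col18a1 (0.0298 TPM) were not at 0. The members are long genes, with a median longest transcript of 5595 bases beside 3286 bases for all genes tested. Of the 1581 genes tested whose lengths lay within the middle range of the members' lengths, 24% were listed at 0 in N/D replicate 1, beside 68.4% of the 19 members tested and 26.1% of all genes tested. These sets were not matched for level, and the part of length in these values was not tested. Without N/D replicate 1 the difference between the lines turned to a median of -0.54 over the 19 members, with 3 above 0 and 16 below 0, beside -0.29 over all genes. Without N/D replicate 2 it was 1.52 beside 0.88, and Col26a1 (3.51, adjusted p = 0.0179) and Col9a3 (3.37, adjusted p = 0.0237) passed the limma test, in a fit that leaves N/D with the library in which both genes were listed at 0 and takes its spread from the N/D/S line. That fit called 17.1% of all genes tested as higher in N/D/S, and 2 of the 19 members.

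Several genes that work with collagens and laminins stood well above the chains themselves in TPM. None of the genes in these lists passed the limma test in either contrast. Of the other components of basement membranes, 7 of 12 were tested, with medians of 0.71 for the lines and, over the 6 at 1 TPM or more in a library of both replicate numbers, -0.95 for the replicate numbers (Nid2 passed the filter through replicate 2 alone). Agrn, which encodes the proteoglycan agrin that clusters acetylcholine receptors, stood at 44.0 and 15.8 TPM in N/D/S and at 15.8 and 38.4 TPM in N/D. Sparc, a collagen-binding glycoprotein, stood at 13.5 and 31.5 TPM in N/D/S and at 0 and 46.1 TPM in N/D, in the order of Col3a1. Agrn did not follow that order, and both genes overlapped between the lines.

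Of the receptors, 8 of 16 were tested, with medians of 0.63 for the lines and -0.47 for the replicate numbers. Both N/D/S libraries were above both N/D libraries for 2 of the 8, beside 8.65% of all genes with a mean of at least 1 TPM, and the lines overlapped for the other receptors named here. The 2, named after their values were seen, were Itga3, the alpha subunit of another laminin receptor, at 10.2 and 16.8 TPM against 0 and 8.91 TPM, and Sdc1, a cell surface proteoglycan, at 38.1 and 25.1 TPM against 12.2 and 23.6 TPM. Itgb1, the beta subunit shared by the integrins that bind laminin and collagen, stood at 77.9 and 16.4 TPM in N/D/S and at 12.9 and 63.1 TPM in N/D. Ddr1, a receptor kinase for collagen, stood at 73.1 and 78.7 TPM in N/D/S and at 27.2 and 77.5 TPM in N/D. Itga6, the alpha subunit of a laminin receptor, was at 32.9 and 7.68 TPM in N/D/S and at 52.4 and 23.2 TPM in N/D. Itgb1, Ddr1 and Itga6 were thus well above 0 in N/D replicate 1, where Dag1, the gene of dystroglycan, was listed at 0 beside 29.0 TPM in the other N/D library and 33.0 and 12.9 TPM in N/D/S.

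Of the enzymes and chaperones that fold and cross-link collagen, 17 of 26 were tested, with a median of 0.34 for the lines. Without P4ha3, P3h2 and Loxl3, which passed the filter through replicate 2 alone, the median for the replicate numbers was -0.35 over 14 genes, 7 of them below 0. P4hb, which is part of prolyl hydroxylase and also a general disulfide isomerase, stood at 351.1 and 193.0 TPM in N/D/S and at 184.5 and 274.4 TPM in N/D. Serpinh1, the collagen chaperone HSP47, stood at 13.4 and 31.1 TPM in N/D/S and at 6.73 and 43.7 TPM in N/D. Serpinh1, like the 10 collagens, had both replicate 2 libraries on top, and P4hb did not. Of the matrix metalloproteinases and their inhibitors, 10 of 12 were tested, with a median of 0.90 for the lines and, without Timp4, which passed the filter through replicate 2 alone, -1.08 for the replicate numbers. Timp2, an inhibitor of these proteases that neurons make, stood at 73.7 and 30.9 TPM in N/D/S against 57.1 and 63.5 TPM in N/D, so neither the lines nor the replicate numbers were apart.

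The summed markers of several cell types other than neurons moved with the same libraries as the 10 collagens. The 4 markers of pluripotent cells summed to 3.50 and 290.5 TPM in N/D/S and to 0.247 and 184.0 TPM in N/D, with Dppa5a, an RNA-binding protein of ES cells, as the highest at up to 265.5 TPM. The 9 markers of mesenchyme, a tissue that makes fibrillar collagens, summed to 4.49 and 12.8 TPM in N/D/S and to 0.121 and 26.4 TPM in N/D. They were highest in Dcn, which encodes decorin, at 7.54 TPM in N/D replicate 2, and 6 of the 9 were at 0 in N/D replicate 1. Within N/D/S, Postn (1.57 and 0.0901 TPM), Pdgfrb (1.02 and 0.398 TPM) and Pdgfra (0.469 and 0.0717 TPM) ran against the order of the sum. The other mesenchyme markers were higher in replicate 2 there. The 11 markers of primitive and visceral endoderm, an early embryonic layer that makes basement membrane, summed to 5.11 and 19.6 TPM in N/D/S and to 0 and 19.9 TPM in N/D. Amn, at 10.9 TPM in N/D/S replicate 2, and Foxa2, at 10.6 TPM in N/D replicate 2, were the highest of them, whereas Gata6 was at 0 in every library and Sox17, Gata4 and Sox7 stayed at 0.321 TPM or less. Afp, a defining marker of visceral endoderm, was above 0 in N/D/S replicate 1 alone, at 0.204 TPM. The 6 markers of epithelium summed to 1.73 and 35.5 TPM in N/D/S and to 0 and 10.5 TPM in N/D, with Krt8 and Krt18 at 25.6 and 9.13 TPM in N/D/S replicate 2 and Krt5 at 0 in every library. Krt8 and Krt18 carried the order in N/D/S. Epcam (0.772 and 0.655 TPM) and Trp63 (0.244 and 0 TPM) were higher in replicate 1 there, and Krt14 reached at most 0.0452 TPM. The 5 markers of glia summed to 12.0 and 34.5 TPM in N/D/S and to 0 and 122.6 TPM in N/D, with Mbp, a myelin protein gene, the highest in each library above 0. Each of these 5 lists summed higher in both replicate 2 libraries than in both replicate 1 libraries, though not every marker kept that order. Of their 18 tested genes, 13 were under 1 TPM in both replicate 1 libraries, so that the filter on low values itself fixed their direction, and no summary of the tested genes is given. The others were Postn, Foxa2, Amn, Dppa5a and Mbp, and none of the 18 passed the limma test. Their part in the collagen levels was not tested.

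The 8 neural progenitor markers also summed higher in both replicate 2 libraries, at 505.0 and 711.9 TPM in N/D/S and at 464.3 and 1197 TPM in N/D, but Fabp7, a fatty acid binding protein of radial glia, alone carried this order. Without it the other 7 summed to 325.9 and 206.3 TPM in N/D/S and to 330.7 and 291.0 TPM in N/D, lower in replicate 2 in both lines. The 12 neuron markers summed to 5251 and 3570 TPM in N/D/S and to 4333 and 3448 TPM in N/D, higher in replicate 1, but without Tubb3 and Stmn2 the order held in N/D/S (1302 and 508.5 TPM) and not in N/D (653.7 and 1086 TPM). On the log2(TPM + 1) scale the medians between replicate numbers were 0.16 over the neuron markers and 0.02 over the progenitor markers, all of which were tested. The 4 markers of cartilage, which makes collagens II, IX and XI, summed to 25.3 and 0 TPM in N/D/S and to 0 and 2.87 TPM in N/D, and Cnmd, the gene of chondromodulin, gave all of the 25.3 TPM. Acan, the main proteoglycan of cartilage, was at 0 in N/D/S replicate 1, where Col2a1 stood at 2.70 TPM. The 6 markers of endothelium summed to 5.26 and 8.06 TPM in N/D/S and to 38.8 and 3.24 TPM in N/D, nearly all of it Pecam1, a cell adhesion protein of vessels, which at 38.8 TPM in N/D replicate 1 was high in the same library as Col5a1. Of the markers that define endothelium most closely, Tek was at 0 in every library and Cdh5 reached 0.00578 TPM in N/D/S replicate 2.

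**Figure D4:**
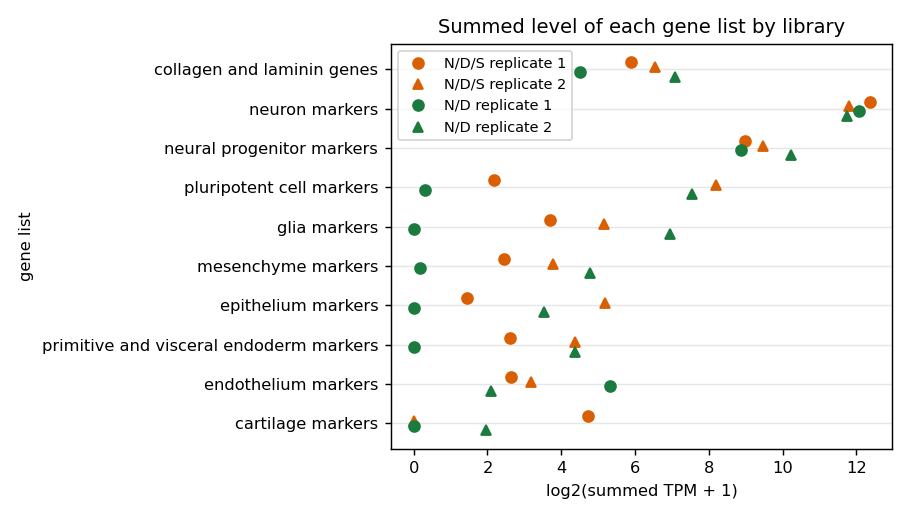
Summed level of the collagen and laminin genes and of each list of cell type markers, as log2(summed TPM + 1); each point is 1 library, circles are replicate 1 and triangles replicate 2, orange is N/D/S and green N/D. The summed collagen and laminin genes have both triangles to the right of both circles, as do the pluripotent, glia, mesenchyme, epithelium and endoderm markers. The order of the epithelium sums rests in N/D/S on Krt8 and Krt18. The same order of the progenitor sums rests on Fabp7, and the opposite order of the neuron sums rests in N/D on Tubb3 and Stmn2.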

How the data were processed

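Poly-A RNA of sorted tdTomato+ neurons was sequenced in 4 libraries, N/D/S and N/D with replicates 1 and 2. The authors made the deposited TPM values with kallisto (version 0.44.0), and the submitters' processing notes also name sleuth and GRCm38. The transcriptome release and how transcripts were summed to gene symbols are not given in the sources used here. TPM removes depth and gene length from the values, keeps no read counts, and makes each gene depend on the rest of its library. For these files 24 symbols that a spreadsheet had turned into dates were left out, which leaves 34968 symbols common to the 4 libraries.

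A gene had to reach 1 TPM in 2 or more libraries, which 12975 did, and was fitted as log2(TPM + 1) with limma (version 3.58.1, R 4.3.3), once by line and once by line and replicate number. Benjamini-Hochberg adjustment ran over all genes tested, with a threshold of 0.05, and the fit was tested on simulated data. The study used sleuth, whose resampled estimates were not used here. No test was run on a list. Values per library are given for members with the 16 highest means, those past the threshold, the 5 highest and 5 lowest fitted differences between the lines, the type IV pairs and the laminin chains (1 gene of the rule is not reported here), plus members that complete a group, which were chosen after their values were seen. Genes of other lists were also named after their values were seen. The members and lists were chosen with earlier results of these data known. Positions are from GENCODE M21 and start sites from RefSeq on GRCm38.p6. Alternatives changed the pseudocount, filter, scaling, log base and variance prior, added replicate number as a block or left out a library. Tables and figures were made with Python 3.11.15, pandas 2.3.3, numpy 2.4.6 and matplotlib 3.10.9.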

Additional observations from a re-analysis of the deposited data

Results flagged for a closer look

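The difference between the lines pointed one way in the replicate 1 libraries and the other way in the replicate 2 libraries for the members as a group and for 5 genes in particular. Each value is N/D/S minus N/D on the log2(TPM + 1) scale and compares 1 library with 1 library, so the difference between the replicate numbers was not tested. The median over the 19 members tested was 1.23 in replicate 1 and -0.33 in replicate 2. Col9a3 stood at 3.18 in replicate 1 and -1.13 in replicate 2, and its partner chain Col9a2 at 1.06 and -1.18. Col11a1 and Col11a2, both chains of type XI collagen, stood at 1.23 and 1.02 in replicate 1 and at -1.85 and -1.37 in replicate 2. The laminin gene Lamb3 stood at 1.29 and -1.46. In each of these 5 genes N/D replicate 1 was at 0 or under 0.01 TPM and N/D replicate 2 held the highest level. All genes tested gave medians of 1.14 and -0.62.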

How the results depend on the processing

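Of 536 values under alternative settings, for 42 results, 445 kept their direction and their side of the threshold or stayed within the spread. Some of these were fixed in advance. Natural logs repeat the pseudocount of 0.5 exactly. A replicate block, a fit without the term for line and a changed variance prior cannot change a fitted difference. The number of genes past the threshold between the lines was 6 with a variance prior that follows mean expression and ranged from 0 to 2373 when each library was left out, with 2373 without N/D replicate 2. The number of members past it was 2 without N/D replicate 2 and otherwise 0. The members' median between the lines was 1.78 with a pseudocount of 0.1 and 0.014 without a filter on low values, and ranged from -0.54 to 1.52 when each library was left out. Between replicate numbers, 4 genes passed with at least 1 TPM required in every library, where no member is tested, 11 with upper quartile scaling and 19 with the variance prior that follows mean expression. The members' median between replicate numbers was -3.27 with a pseudocount of 0.1 and -0.26 without a filter. The difference between the lines changed sign for Col11a2 (0.0033 with a pseudocount of 0.1) and Col4a3 (-0.052 with upper quartile scaling). It also changed sign for Col9a2 (0.025 with a pseudocount of 0.5, 0.59 with 0.1) and Lamb3 (0.030 with a pseudocount of 0.5, 0.69 with 0.1). The causes were not tested. Upper quartile scaling moved the median of all genes between the lines from 0.26 to 0.14.

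When each library was left out in turn, the difference between the lines ranged as follows: Col11a1 -1.26 to 0.64, Col11a2 -0.90 to 0.56, Col18a1 -0.37 to 2.27, Col1a1 -1.23 to 1.65, Col1a2 -0.24 to 2.43, Col26a1 -0.51 to 3.51, Col2a1 -0.54 to 2.26, Col3a1 -1.74 to 2.52, Col4a1 -1.10 to 1.94, Col4a2 -0.77 to 2.32, Col4a3 -0.51 to 0.73, Col4a5 -0.60 to 1.08, Col6a1 -0.10 to 1.64, Col6a2 -0.029 to 1.62, Col9a2 -0.82 to 0.71, Col9a3 -1.33 to 3.37, Lamb3 -1.06 to 0.89 and Lamc1 -0.38 to 1.41. Of the 18 genes named, 11 changed direction without N/D replicate 1. Between replicate numbers, leaving out a library leaves no residual degrees of freedom, and without N/D replicate 1 the sign changed for Col11a1, Col11a2, Col1a2, Col4a3, Col9a2, Lamb3 and Lamc1.

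Both lines hold both replicate numbers, so the replicate number as a block cannot change a fitted difference between the lines. The members' median of 0.42 and every direction thus stayed as they were by design. Only the spread can change, and the fit with the block called 0 genes by limma (3 higher and 6 lower at an unadjusted p under 0.05). It changed no call of a named gene. Same-numbered libraries deviated together with a correlation of only 0.0197 over 12975 genes, and the main fit between the lines did not take the numbers as pairs. The differences within replicate numbers given above do set same-numbered libraries against each other. They are a description without a test, and this correlation gives little ground for the pairing. With values in TPM, depth is unknown and a level listed at 0 has no limit attached.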
